A study of Mus musculus with 6 samples.

Results

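The nuclear genes for subunits of the mitochondrial respiratory chain and ATP synthase were examined in RNA-seq libraries of lymphocytes taken from mouse tumors. Members were the protein-coding rows whose gene names begin with Nduf followed by a, b, c, s or v and a digit, with Uqcr, with Cox and a digit from 4 to 8, or with Atp5, together with Sdha, Sdhb, Sdhc and Sdhd. The rule gave 89 of the 57180 genes in the table. They comprised 37 genes of complex I, 4 of complex II, 8 of complex III, 21 of complex IV and 19 of complex V. Ndufa4 and Ndufa4l2 were placed with complex IV, where the protein of Ndufa4 is now known to sit, although both are named after complex I.

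The respiratory chain passes electrons from NADH (complex I) and succinate (complex II) to ubiquinone, then through complex III and cytochrome c to oxygen at complex IV. Complexes I, III and IV pump protons across the inner mitochondrial membrane, and ATP synthase (complex V) uses the returning protons to make ATP. Complex II is built from nuclear genes alone, whereas each of the others joins nuclear subunits with a few encoded in mitochondrial DNA. Activated T cells raise both glycolysis and mitochondrial respiration.

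All mice carried Hepa1-6 tumors, grown from a mouse hepatoma line. By tail vein they received TREND, a delivery system carrying plasmids for the RNA-cutting nuclease CasRx. In 3 libraries, called Mock sgRNA, the plasmids held a mock guide. In the 3 called SLC43A2 sgRNA, which carry the genotype label SLC43A2 knockdown, the guide targeted that gene, an amino acid transporter. The labels give no strain, age or treatment time, and do not say whether a library is 1 mouse, so p-values measure the spread between these libraries.

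Values are in TPM, which correct for gene length and give each gene as a share of its own library. Differences were tested with limma on log2(TPM + 1) over the 13759 genes with a mean of at least 1 TPM, with Benjamini-Hochberg adjusted p under 0.05 as the threshold; "rose" and "fell" refer to genes past it, from Mock sgRNA to SLC43A2 sgRNA. Slc43a2 itself stood at 6.68, 4.18 and 4.79 TPM with the mock guide and at 3.5, 2.4 and 4.15 TPM with its own guide (log2 change -0.52, limma adjusted p = 0.113). All 6 T cell markers were measured, with summed levels of 3460 to 4162 TPM in Mock sgRNA and 3029 to 3171 TPM in SLC43A2 sgRNA libraries; their median log2 change was -0.27, 0 rose and 1 (Cd3g) fell. All 4 B cell markers fell (summed levels 274 to 354 against 22.3 to 23.4 TPM), as did all 3 plasma cell (19300 to 20010 against 565 to 691 TPM), 4 macrophage and monocyte (387 to 450 against 45.2 to 47.9 TPM), 4 neutrophil (402 to 588 against 91.9 to 113 TPM), 4 erythroid (593 to 658 against 25.7 to 32.1 TPM) and 3 NK cell markers (192 to 258 against 77.2 to 80.8 TPM). Of 4 hepatocyte and hepatoma markers, Alb and Ttr were listed at 0, and the sum ran from 4.39 to 7.31 TPM in Mock sgRNA and from 2.69 to 4.48 TPM in SLC43A2 sgRNA libraries. All 4 Y-linked genes examined were near 0 in the SLC43A2 sgRNA libraries. Eif2s3y stood at 45.3 to 55.6 TPM in Mock sgRNA and 0.79 to 1.36 TPM in SLC43A2 sgRNA libraries, Ddx3y at 13.4 to 21.5 and 0.33 to 0.57 TPM, Kdm5d at 7.23 to 8.58 and 0.47 to 0.74 TPM, and Uty at 4.61 to 8.44 and 0.07 to 0.21 TPM. Xist, which is transcribed from the inactive X chromosome, stood at 3.18 to 5.4 and 9.64 to 11.9 TPM. The labels give no sex, and a difference in the sex of the mice or of the cells cannot be told apart from the guide in any comparison here. The share of TPM from nuclear protein-coding genes was 74.0% ± 1.43 with the mock guide and 84.1% ± 0.335 with the SLC43A2 guide (SD, n = 3 each). The part of these shifts in the results below was not tested, and in bulk RNA fewer cells of a type and less RNA per cell cannot be told apart.

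Of the 89 members, 81 reached a mean of 1 TPM and were tested. Among them 44 rose, 1 (Cox7a2l) fell and 36 did not pass the threshold. The share that rose, 54.3%, compares with 22.8% of all tested genes, 28.1% of tested protein-coding genes and 48.4% of the 2335 protein-coding genes with a mean of at least 50 TPM, a level that 78 of the 81 members reached. That last background was chosen after the data were seen. The median log2 change of the tested members was 0.43, against 0.03 for all tested genes, 0.16 for protein-coding genes and 0.42 for protein-coding genes of at least 50 TPM. The share of members that rose and their median thus stood near those of other abundant protein-coding genes. Falls made up 1.23% of members, against 22.2% of all tested genes, 19.3% of protein-coding genes and 12.8% of abundant protein-coding genes.

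In 57 of the 81 tested members the 2 groups did not overlap, against 57.0% of all tested genes, 60.2% of protein-coding and 71.9% of abundant protein-coding genes. In 56 of them all 3 SLC43A2 sgRNA libraries were the higher ones, as in 28.7%, 35.1% and 55.9% of those backgrounds. The 44 that rose are all among the 56. The number that rose depended on scaling and on single libraries. It was 27 when libraries were rescaled to their nuclear protein-coding genes (16.3% of all genes then rose), 25 without Mock sgRNA replicate 1 (17.8% of all genes) and 28 without SLC43A2 sgRNA replicate 3 (14.3% of all genes). The share of all genes that rose under every setting was not counted, so the following count has no background and is a description. In 22 members the rise passed the threshold under the main analysis and under all 18 other settings. These were Ndufa9, Ndufa10, Ndufa11, Ndufb2, Ndufb6, Ndufb8, Ndufc2, Ndufs5 and Ndufs6 in complex I, Sdhb and Sdhd in complex II, Uqcr10, Uqcrc1, Uqcrc2, Uqcrfs1 and Uqcrq in complex III, Cox6b2 in complex IV, and Atp5f1a, Atp5f1b, Atp5f1d, Atp5mc1 and Atp5pb in complex V.

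**Figure D1:**
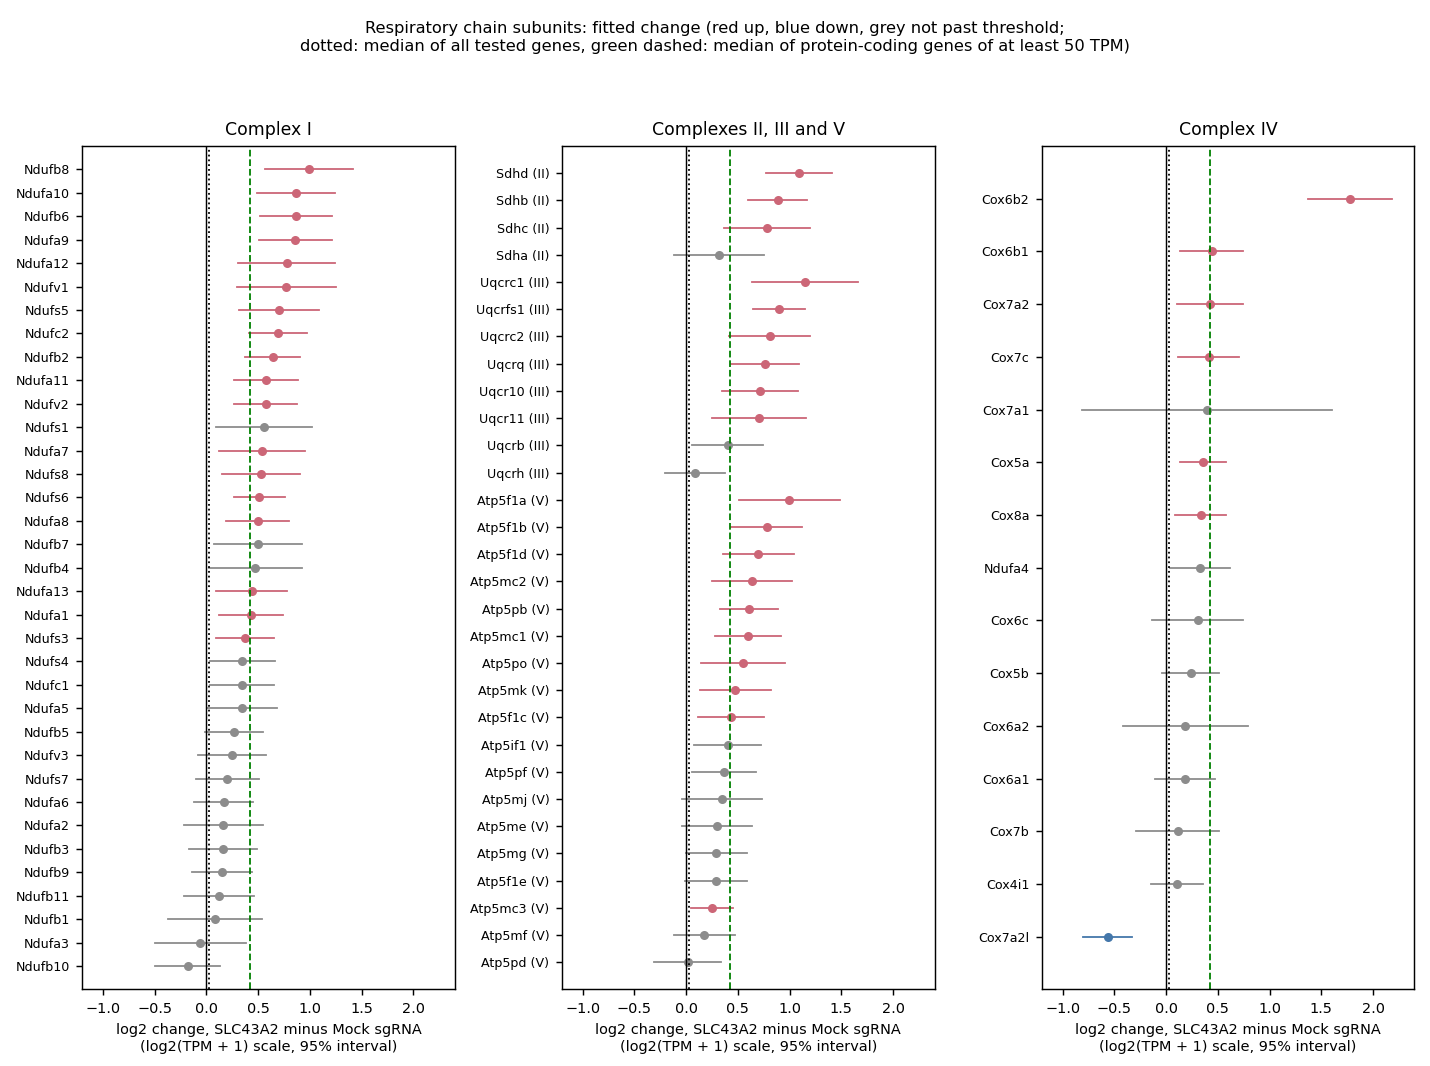
Fitted log2 change from Mock sgRNA to SLC43A2 sgRNA (log2(TPM + 1) scale, horizontal axis) with its 95% interval for 80 of the subunit genes, by complex. Red points rose (43), the blue point fell (Cox7a2l) and grey points did not pass the threshold. The dotted line is the median of all tested genes (0.03) and the green dashed line that of protein-coding genes of at least 50 TPM (0.42). The median of the 81 tested members (0.43) is close to the dashed line, while single members spread widely around it.

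The members also differed widely in level, which TPM allows to be compared between genes. Mean TPM in Mock sgRNA libraries ran from 3.29 for Cox7a1 to 1695 for Atp5f1b, with a median of 405 over the tested members. In complex I, where the subunits of these members are present once per complex, Mock sgRNA means ran from 57.1 TPM for Ndufs1 to 1426 TPM for Ndufa1. The 7 catalytic core genes of complex I had a median of 165 TPM and the 29 other tested genes 322 TPM. In ATP synthase the catalytic beta subunit gene Atp5f1b stood at 1695 TPM and its partner alpha, Atp5f1a, at 256 TPM, although both proteins are present in equal number.

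Promoter sequences are shown for the gene with the largest rise in complexes I, II, III and IV and for the single gene that fell, because factors that bind such promoters are known to act on many respiratory genes together. The nuclear respiratory factor Nrf1 and the ETS factor Gabpa (also called NRF-2) are known activators of these genes, and Yy1 binds many of them. Sequences are from RefSeq, build GRCm38.p6, and cover 250 bases before to 50 after the annotated start, read 5′ to 3′ on the gene's strand. The windows are chr9:108936398-108936697, plus strand, for Uqcrc1; chr9:50603800-50604099, minus strand, for Sdhd; chr19:44555393-44555692, minus strand, for Ndufb8; chr7:4753045-4753344, minus strand, for Cox6b2; and chr17:83514284-83514583, minus strand, for Cox7a2l. Capitals mark matches on either strand to GCGCA and GCGC with any 1 base between them (Nrf1), CCGGAAG (Gabpa) and AAGATGGC (Yy1).
Uqcrc1 promoter: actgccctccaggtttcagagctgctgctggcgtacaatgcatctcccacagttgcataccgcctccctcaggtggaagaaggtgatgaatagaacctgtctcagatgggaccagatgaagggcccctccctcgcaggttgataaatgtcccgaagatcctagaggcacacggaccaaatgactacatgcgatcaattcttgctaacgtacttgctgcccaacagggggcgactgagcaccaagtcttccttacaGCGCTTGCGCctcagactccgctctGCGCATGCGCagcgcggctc
Sdhd promoter: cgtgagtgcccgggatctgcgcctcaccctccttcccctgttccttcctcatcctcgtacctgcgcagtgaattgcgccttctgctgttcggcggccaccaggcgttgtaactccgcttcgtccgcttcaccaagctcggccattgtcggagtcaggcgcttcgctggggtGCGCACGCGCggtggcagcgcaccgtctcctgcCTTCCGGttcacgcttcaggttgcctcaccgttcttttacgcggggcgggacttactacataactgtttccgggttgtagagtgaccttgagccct
Ndufb8 promoter: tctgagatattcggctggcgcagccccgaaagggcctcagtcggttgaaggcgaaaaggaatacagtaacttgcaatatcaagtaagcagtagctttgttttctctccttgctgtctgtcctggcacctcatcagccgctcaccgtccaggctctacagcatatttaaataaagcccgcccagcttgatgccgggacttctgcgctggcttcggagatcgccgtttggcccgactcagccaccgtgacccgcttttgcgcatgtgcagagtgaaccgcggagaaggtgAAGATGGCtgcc
Cox6b2 promoter: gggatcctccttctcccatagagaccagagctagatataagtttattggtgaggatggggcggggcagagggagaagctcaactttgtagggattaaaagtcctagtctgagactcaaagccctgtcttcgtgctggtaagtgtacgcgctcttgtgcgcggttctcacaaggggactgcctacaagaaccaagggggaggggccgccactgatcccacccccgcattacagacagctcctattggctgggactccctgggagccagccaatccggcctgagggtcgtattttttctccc
Cox7a2l promoter: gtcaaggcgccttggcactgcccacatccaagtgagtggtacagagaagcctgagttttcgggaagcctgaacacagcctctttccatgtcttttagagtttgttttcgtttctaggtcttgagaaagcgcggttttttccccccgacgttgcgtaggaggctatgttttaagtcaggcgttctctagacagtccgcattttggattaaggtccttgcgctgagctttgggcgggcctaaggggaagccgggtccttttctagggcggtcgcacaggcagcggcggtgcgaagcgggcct

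The Uqcrc1 window held 2 Nrf1 matches, that of Sdhd 1 Nrf1 and 1 Gabpa match, and that of Ndufb8 1 Yy1 match. The windows of Cox6b2 and Cox7a2l held none of these letter strings. The RefSeq start used for Cox7a2l lies inside the gene's GENCODE M21 span, downstream of the start annotated there, so its window does not cover the GENCODE start. RefSeq windows were found for 70 of the 89 members. Nrf1 letters were in 18 of the 70 (25.7%), against 5.19% of all 27025 genes with a window and 7.17% of the 17491 protein-coding ones. Gabpa letters were in 17 (24.3%), against 9.93% and 12.9%, and Yy1 letters in 10 (14.3%), against 3.19% and 3.57%. The letters TATAAA, a common core promoter element, were in 8 (11.4%), against 15.7% and 14.8%. Among members with a window, Nrf1 letters were in 10 of the 39 that rose and 8 of the 28 tested that did not rise. The counts for Gabpa were 9 of 39 and 8 of 28, and for Yy1 4 of 39 and 6 of 28. The letters were not counted among abundant protein-coding genes alone, so the shares of members lack that background. A match is a description of letters and not a measured binding site.

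In complex I, 19 of 36 tested genes rose (52.8%) and 0 fell, with a median log2 change of 0.48. Of all tested genes 22.8% rose, and of abundant protein-coding genes 48.4%, with a median of 0.42. Most complexes and their parts hold few genes, and their counts are given as a description. Ndufb8, an accessory subunit of the membrane arm, changed the most. Ndufb8 stood at 372, 402 and 520 TPM in Mock sgRNA and at 765, 1044 and 765 TPM in SLC43A2 sgRNA libraries (log2 change 0.99, SE 0.18, limma adjusted p = 0.00522). The groups did not overlap, and SLC43A2 sgRNA replicate 2 was the highest. Ndufa10, another membrane arm subunit, went from 166 ± 34.2 to 301 ± 18.9 TPM (0.87, adjusted p = 0.00551). Ndufa9, an accessory subunit near the ubiquinone site, went from 140 ± 27.0 to 252 ± 4.45 TPM (0.86, adjusted p = 0.00452). Ndufb6 went from 440 ± 51.0 to 805 ± 126 TPM (0.87, adjusted p = 0.00422). Exons of Ndufb6 share 39.0% of their bases with Smim27 on the opposite strand in GENCODE M21, and without strand information reads there cannot be assigned to either gene.

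The 7 catalytic core genes of complex I carry the flavin and iron-sulfur clusters or line the ubiquinone site. Of these, 5 rose (71.4%) and 0 fell, with a median of 0.56. Among the other 29 tested genes 14 rose (48.3%), with a median of 0.44. The share of abundant protein-coding genes that rose was 48.4%. Ndufv1, which binds NADH and the flavin, stood at 60.6, 54.8 and 88.5 TPM in Mock sgRNA and 124, 99.1 and 122 TPM in SLC43A2 sgRNA libraries (0.77, SE 0.20, adjusted p = 0.0201), with no overlap. Its iron-sulfur partner Ndufv2 rose by 0.57 (adjusted p = 0.0109). Ndufs1, the largest subunit and a carrier of iron-sulfur clusters, stood at 63.5, 53.5 and 54.3 TPM in Mock sgRNA and 100, 63.5 and 94.3 TPM in SLC43A2 sgRNA libraries. It did not pass (0.56, 95% interval 0.10 to 1.02, adjusted p = 0.0529), and its groups touched at SLC43A2 sgRNA replicate 2; without that library adjusted p was 0.00867. Ndufs7, which holds the last iron-sulfur cluster before ubiquinone, had a log2 change of 0.20 and adjusted p = 0.238.

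By module, 5 of 10 genes of the NADH-oxidizing N module rose (median 0.53), 3 of 5 of the ubiquinone-reducing Q module (0.37) and 11 of the 21 tested others (0.47). The range within each module was wider than the difference between their medians. In the N module it ran from 0.17 for Ndufa2 to 0.78 for Ndufa12, an accessory subunit that rose. The smallest changes in complex I were those of Ndufa3 (946 ± 88.9 and 926 ± 241 TPM, log2 change -0.06, 95% interval -0.50 to 0.38) and Ndufb1 (198 ± 53.5 and 206 ± 12.2 TPM, 0.08, interval -0.37 to 0.54), both accessory subunits. The sign of both differed between scalings. Of the 3 X-linked members, Ndufa1 rose by 0.43, while Ndufb11 (0.12, adjusted p = 0.50) and the complex IV gene Cox7b (0.11, adjusted p = 0.612) did not pass. The part of the Y-linked and Xist differences in these values was not tested. Ndufb4, at 72.8 ± 14.2 and 101 ± 17.6 TPM (adjusted p = 0.0812), is uncertain, since the processed pseudogene Ndufb4c stood higher, at 307 and 417 TPM, and reads may be split between them.

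**Figure D2:**
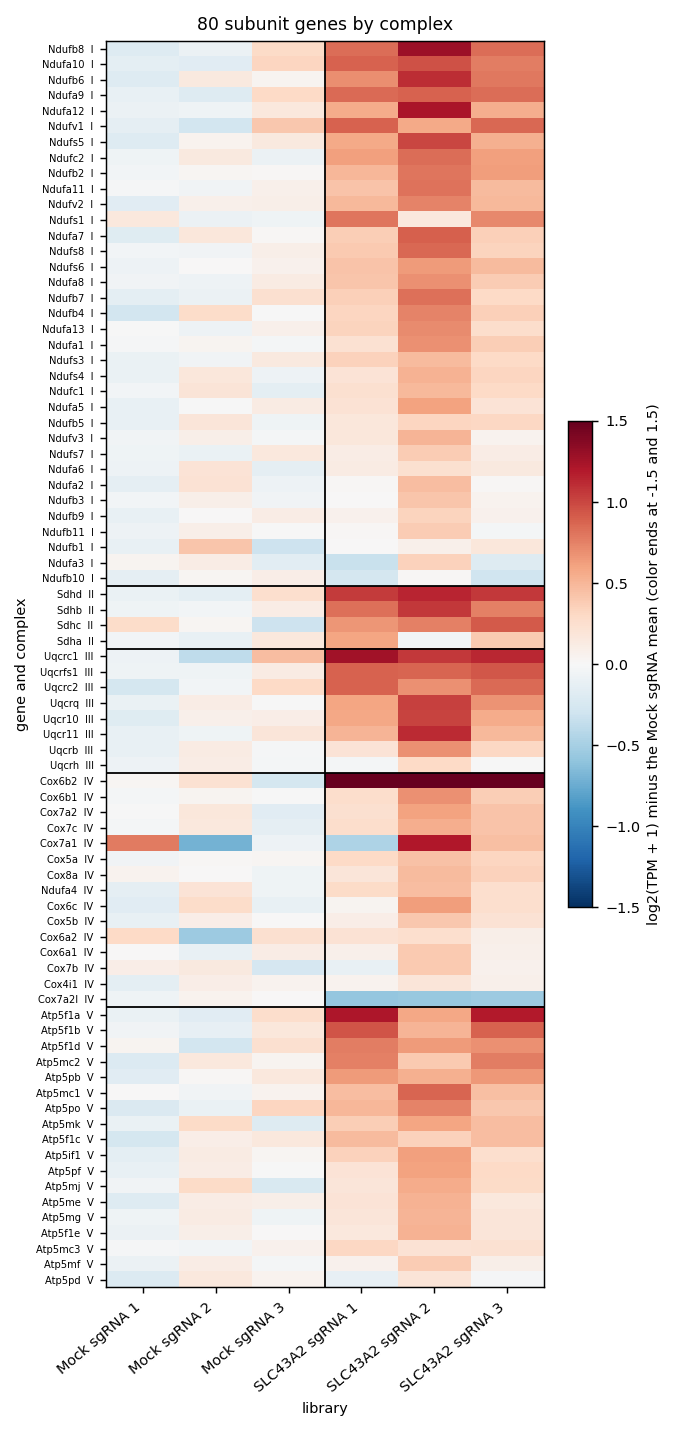
Level of 80 subunit genes (rows, grouped by complex and ordered by change) in each of the 6 libraries (columns), as log2(TPM + 1) minus the Mock sgRNA mean of that gene; colors end at -1.5 and 1.5. Most rows are higher in the SLC43A2 sgRNA libraries, most of all in replicate 2, and Cox7a2l is lower in all 3.

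In complex II, the succinate dehydrogenase that also serves the tricarboxylic acid cycle, 3 of 4 genes rose. Among abundant protein-coding genes 48.4% rose, and 4 genes are few to set beside that share. Sdhd, a membrane anchor, stood at 173, 167 and 220 TPM in Mock sgRNA and at 385, 409 and 388 TPM in SLC43A2 sgRNA libraries (log2 change 1.09, SE 0.13, limma adjusted p = 0.00124). Sdhb, the iron-sulfur subunit, stood at 272, 278 and 308 TPM and at 508, 598 and 485 TPM (0.88, SE 0.12, adjusted p = 0.00175). In both the groups were far apart and the spread within a group was small. Sdhc, the other anchor, stood at 84.0, 70.6 and 55.4 TPM and at 110, 118 and 132 TPM (0.78, SE 0.17, adjusted p = 0.0110). Sdha, the flavoprotein that oxidizes succinate, stood at 108, 103 and 124 TPM and at 169, 108 and 147 TPM. It did not pass (0.32, 95% interval -0.12 to 0.75, adjusted p = 0.201), with SLC43A2 sgRNA replicate 2 inside the Mock sgRNA range; without that library the change was 0.50 and adjusted p = 0.0351.

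In complex III, 6 of 8 genes rose (75.0%) and 0 fell, with a median log2 change of 0.74. For abundant protein-coding genes the share that rose was 48.4% and the median 0.42. Uqcrc1, a core protein on the matrix side, stood at 157, 127 and 230 TPM in Mock sgRNA and at 398, 346 and 366 TPM in SLC43A2 sgRNA libraries, with no overlap (1.15, SE 0.22, adjusted p = 0.00581). Its partner Uqcrc2 went from 120 ± 24.3 to 207 ± 14.8 TPM (0.81, adjusted p = 0.00802). Uqcrfs1, the Rieske iron-sulfur protein that hands electrons to cytochrome c1, stood at 177, 178 and 202 TPM and at 343, 341 and 354 TPM (0.90, SE 0.10, adjusted p = 0.000986), among the tightest groups of any member. Uqcrq, a small subunit that contacts cytochrome b, went from 703 ± 50.5 to 1202 ± 203 TPM (0.76, adjusted p = 0.00528). The small subunits Uqcr10 (0.72) and Uqcr11 (0.70) also rose. Uqcrb, at 856 ± 71.6 and 1137 ± 203 TPM, did not pass (0.40, adjusted p = 0.0613), nor did Uqcrh, the hinge protein, at 782 ± 53.6 and 834 ± 108 TPM (0.09, 95% interval -0.20 to 0.38), whose sign differed between scalings.

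In complex IV, 6 of 15 tested genes rose and 1 fell, with a median log2 change of 0.33. Cox6b2 had the highest log2 change of the 81 tested members. It is an isoform of subunit 6b known from testis, and the widely used isoform is Cox6b1. Cox6b2 stood at 14.9, 17.2 and 11.9 TPM in Mock sgRNA and at 45.8, 57.1 and 54.2 TPM in SLC43A2 sgRNA libraries, 3.58-fold higher by group means (1.78, SE 0.17, adjusted p = 0.000461). The lowest SLC43A2 sgRNA value was well above the highest Mock sgRNA value. Cox6b1 stood at 692, 727 and 703 TPM and at 849, 1139 and 917 TPM (0.44, SE 0.13, adjusted p = 0.0288). The share of Cox6b TPM that came from Cox6b2 was 2.02% ± 0.332 in Mock sgRNA and 5.16% ± 0.403 in SLC43A2 sgRNA libraries (SD, n = 3 each), so Cox6b1 remained the main source in every library. Cox6b2 lies at GRCm38 chromosome 7, 4751792 to 4753094, minus strand.

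Cox7a2l was the only member that fell. Its protein, also called SCAF1, joins complexes III and IV into supercomplexes and is a relative of the complex IV subunits Cox7a1 and Cox7a2. Cox7a2l stood at 233, 252 and 243 TPM in Mock sgRNA and at 162, 163 and 166 TPM in SLC43A2 sgRNA libraries (log2 change -0.56, 95% interval -0.80 to -0.33, adjusted p = 0.00451). The groups were well separated and the 3 SLC43A2 sgRNA values nearly equal. Under the 18 other settings its change ran from -0.82 to -0.39 and adjusted p from 0.00105 to 0.0255. Cox7a2, the widely used isoform, stood at 756, 852 and 675 TPM and at 894, 1147 and 1020 TPM (0.42, adjusted p = 0.0407). Cox7a1, the heart and muscle isoform, was low and scattered, at 5.73, 1.4 and 2.73 TPM and at 1.85, 8 and 4.34 TPM (0.39, SE 0.51, adjusted p = 0.55). Cox7a2l lies at GRCm38 chromosome 17, 83501918 to 83517330, minus strand.

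Other tissue-restricted isoforms of complex IV were near or at 0. Cox6a2, the heart and muscle form, stood at 3.73 ± 1.37 and 4.22 ± 0.318 TPM beside 1169 ± 88.3 and 1331 ± 178 TPM for Cox6a1, and neither passed (adjusted p = 0.573 and 0.268). Cox4i2 and Ndufa4l2, isoforms known to be induced by hypoxia in other cells, were listed at no more than 0.22 TPM in any library. Cox7b2, Cox8b and Cox8c were listed at 0 in all 6. Their counterparts were abundant. Cox8a rose by 0.33 (adjusted p = 0.0377), while Cox4i1 at 772 ± 69.9 and 828 ± 40.8 TPM (0.10, adjusted p = 0.45) and Ndufa4 at 1194 ± 153 and 1497 ± 119 TPM (0.33, adjusted p = 0.0633) did not pass. Of the genes outside these isoform families Cox5a (0.36) and Cox7c (0.41) rose, and Cox5b (0.24, adjusted p = 0.139) and Cox6c (0.31, adjusted p = 0.215) did not pass. Apart from Cox6b2, no rise in complex IV held under all 18 other settings. Only 1 complex IV gene rose after rescaling to nuclear protein-coding genes (16.3% of all genes) or after median-of-ratios scaling (26.9%).

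**Figure D3:**
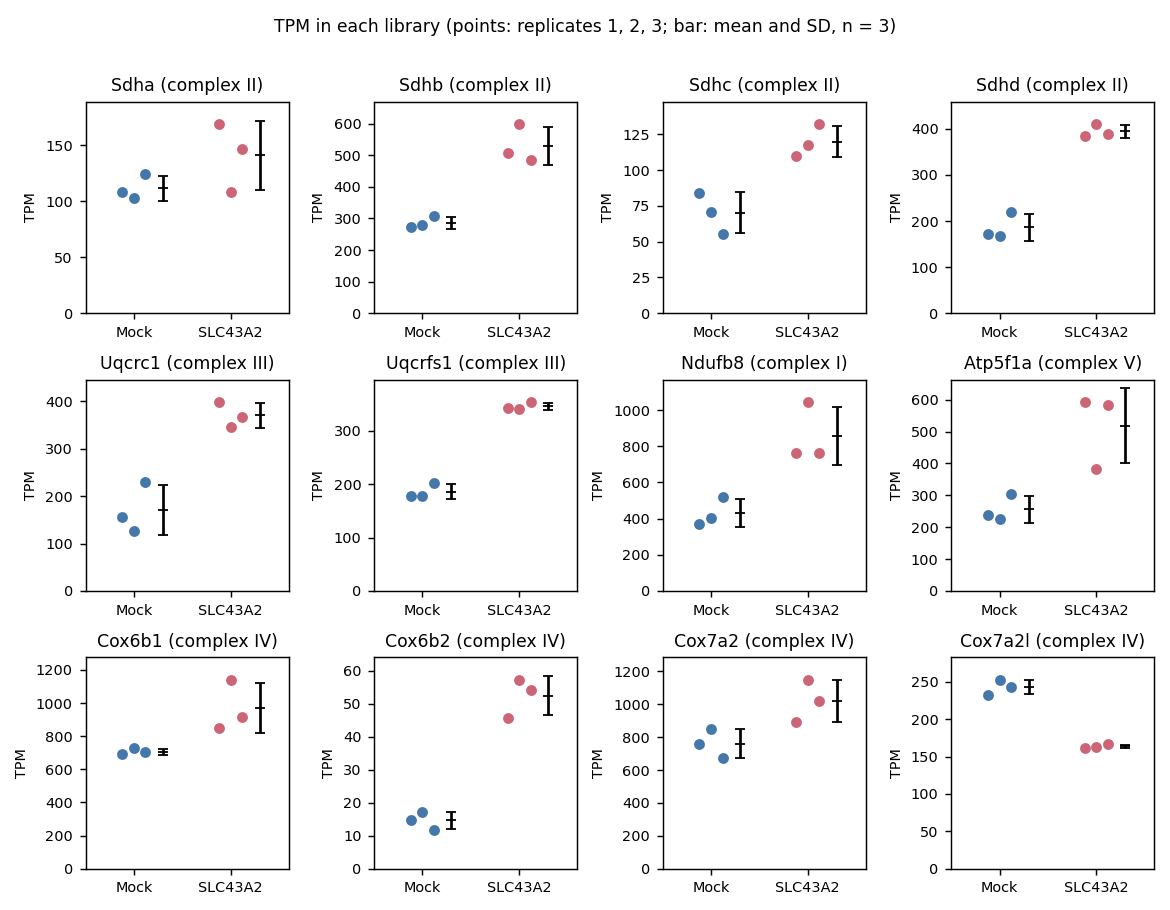
TPM (vertical axis, starting at 0) of 12 subunit genes in each library, with points for replicates 1, 2 and 3 of Mock sgRNA (blue) and SLC43A2 sgRNA (red) and a black mark for the mean with its SD (n = 3). Groups are apart for all but Sdha, and Cox7a2l alone is lower with the SLC43A2 guide.

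In ATP synthase, 10 of 18 tested genes rose (55.6%) and 0 fell, with a median log2 change of 0.42. For abundant protein-coding genes the share that rose was 48.4% and the median 0.42. In the catalytic F1 head 4 of 5 rose (80.0%, median 0.70). Atp5f1a, the alpha subunit, stood at 238, 226 and 305 TPM in Mock sgRNA and at 592, 382 and 582 TPM in SLC43A2 sgRNA libraries (1.00, SE 0.21, adjusted p = 0.00841). Atp5f1b, the catalytic beta subunit, stood at 1634, 1555 and 1896 TPM and at 3261, 2400 and 3109 TPM (0.78, SE 0.14, adjusted p = 0.00562). In both, SLC43A2 sgRNA replicate 2 was the lowest of its group, yet above every Mock sgRNA library. Atp5f1d, the delta subunit, rose by 0.70 (adjusted p = 0.00864) and Atp5f1c, the gamma subunit that turns in the head, by 0.43. Atp5f1e, the epsilon subunit, did not pass (0.29, adjusted p = 0.103).

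In the peripheral stalk, 2 of 4 tested genes rose, Atp5pb by 0.61 and Atp5po by 0.55. Atp5pd, a stalk subunit, had the smallest change in the complex, at 602, 773 and 723 TPM in Mock sgRNA and 639, 794 and 685 TPM in SLC43A2 sgRNA libraries (0.02, 95% interval -0.31 to 0.34). Its groups overlapped throughout and its sign differed between scalings. In the membrane part 4 of 8 rose (median 0.32), while the small subunit Atp5mf did not pass (0.18, adjusted p = 0.284). The inhibitor of the enzyme, Atp5if1, did not pass either, at 251 ± 23.7 and 332 ± 45.1 TPM (0.40, adjusted p = 0.0506).

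The rotor ring of ATP synthase is made of c subunits from 3 genes that encode the same mature protein behind different import signals. Atp5mc3 gave most of their TPM. Atp5mc3 stood at 1412, 1392 and 1499 TPM in Mock sgRNA and 1775, 1666 and 1682 TPM in SLC43A2 sgRNA libraries (0.25, adjusted p = 0.0482, a call lost in 11 of the 18 other settings). Atp5mc1 stood at 757, 729 and 784 TPM and at 1045, 1383 and 1036 TPM (0.60, SE 0.13, adjusted p = 0.0114), with no overlap. Atp5mc2 was low, at 45.4 ± 5.84 and 71.4 ± 10.2 TPM (0.64, adjusted p = 0.0180). The share of c-subunit TPM from Atp5mc1 was 33.8% ± 0.387 in Mock sgRNA and 39.2% ± 4.60 in SLC43A2 sgRNA libraries, and that from Atp5mc3 was 64.1% ± 0.207 and 58.4% ± 4.16 (SD, n = 3 each). The Atp5mc1 share was 44.5% in SLC43A2 sgRNA replicate 2 and 36.1% and 37.1% in replicates 1 and 3, all above the 33.6% to 34.3% of the Mock sgRNA libraries.

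Together the 89 members took 4.11% ± 0.212 of TPM with the mock guide and 5.56% ± 0.569 with the SLC43A2 guide (SD, n = 3 each). As a share of nuclear protein-coding TPM they made up 5.55% ± 0.296 and 6.62% ± 0.684. The single values of that share were 5.29%, 5.87% and 5.49% against 6.13%, 7.40% and 6.32%, so the groups did not overlap on either scale. By group means, summed TPM stood 1.37-fold higher with the SLC43A2 guide for complex I, 1.81-fold for complex II, 1.53-fold for complex III, 1.22-fold for complex IV and 1.36-fold for complex V. Complex II had the lowest sum, at 654 ± 47.1 and 1185 ± 42.1 TPM.

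Most subunits encoded in mitochondrial DNA went the other way in the same libraries. Of these 13 genes 0 rose and 7 fell, with a median log2 change of -0.80. Falls made up 22.2% of all tested and 12.8% of abundant protein-coding genes. Those that fell included mt-Nd6 (-1.47), mt-Nd4 (-1.38) and mt-Nd2 (-1.01). The abundant mt-Nd1 did not fall, at 3126 and 3359 TPM (0.12, limma adjusted p = 0.497). The change of mt-Nd4l was also positive (0.08), but it was listed at 0 in most libraries. Summed TPM of the mitochondrially encoded genes stood at 0.694 of the Mock sgRNA level for complex I, 0.690 for complex III, 0.637 for complex IV and 0.617 for complex V. The ratio of nuclear to mitochondrially encoded subunit TPM was 0.904, 1.15 and 1.22 in Mock sgRNA and 2.11, 2.81 and 1.96 in SLC43A2 sgRNA libraries. The lowest SLC43A2 sgRNA ratio was above the highest Mock sgRNA ratio. A ratio within a library does not depend on scaling to other genes, and shows unequal change of the 2 sets and not which of them moved.

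**Figure D4:**
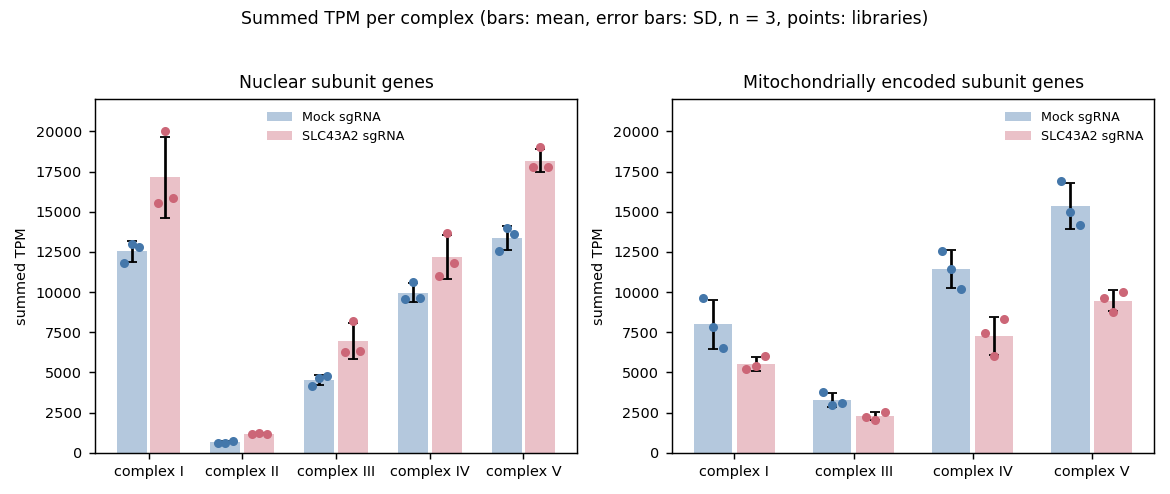
Summed TPM per complex (vertical axis) for nuclear subunit genes (left) and mitochondrially encoded ones (right) in Mock sgRNA (blue) and SLC43A2 sgRNA (red) libraries; bars are means, error bars SD (n = 3) and points single libraries. Nuclear sums are higher with the SLC43A2 guide in every complex (1.22-fold to 1.81-fold), and mitochondrially encoded sums are lower (0.617 to 0.694 of the Mock sgRNA mean).

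The subunit genes outside the name rule also rose. They are Cycs, cytochrome c (131 to 274 TPM, log2 change 1.06, limma adjusted p = 0.00328), Cyc1, cytochrome c1 of complex III (199 to 369 TPM, 0.95, adjusted p = 0.0198), and Ndufab1, the acyl carrier protein in complex I (460 to 844 TPM, 0.86, adjusted p = 0.00463). Of 52 measured assembly factors 21 rose and 4 fell, with a median of 0.49, beside 28.1% of tested protein-coding genes that rose, 19.3% that fell and 48.4% that rose among those of at least 50 TPM. The counts per complex are small and are given as a description. By complex, 7 of 15 rose for complex I, 1 of 4 for complex II (Sdhaf1, 0.56), 3 of 6 for complex III, 7 of 23 for complex IV and 3 of 4 for ATP synthase. Tmem70, which helps build the c ring, rose by 1.19 (56.4 to 130 TPM), Atpaf2, a chaperone of the alpha subunit, by 1.03 and Tmem242 by 0.50. For complex I, Ndufaf6 rose by 1.13 and Ndufaf1 by 1.10 and Tmem186 by 0.91, while Ndufaf3 fell (-0.66). For complex III, Uqcc1, needed for cytochrome b, rose by 1.04, Lyrm7 by 0.58 and Uqcc2 by 0.51. For complex IV the copper chaperones Sco1 (1.46, from 7.79 to 22.7 TPM) and Cox17 (0.86, from 652 to 1201 TPM) rose. Cmc1 (-0.65, from 75.6 to 47.1 TPM), Cmc2 (-0.63, from 27.6 to 17.2 TPM) and Pet117 (-1.10) fell. Pet117 was low in both groups, at 2.08 and 0.427 TPM.

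Of 14 tested regulators of mitochondrial biogenesis 4 rose and 4 fell, shares near those of all tested protein-coding genes (28.1% and 19.3%), so nothing is read from the counts. Myc rose by 1.41 (80.5 to 214 TPM), Gabpb1, a partner of Gabpa, by 1.31 (18.7 to 47.6 TPM), Gabpa by 0.89 (2.00-fold by group means) and Nrf1 by 0.53 (21.0 to 30.9 TPM). Gabpb2, the other such partner, fell by 1.37 on the log2 scale, and Yy1 changed by -0.68. Polrmt, the mitochondrial RNA polymerase, changed by -0.56 and the coactivator Ppargc1b, low at 2.64 and 1.18 TPM, by -0.75. Tfam, Tfb1m, Tfb2m, Twnk, Esrra and Pprc1 did not pass. Gabpa shares exons with the member Atp5pf on the opposite strand over 12.7% of the bases of Atp5pf.

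The SLC43A2 sgRNA libraries were not alike for the members. Replicate 2 held the highest value of the 6 libraries for 62 of the 81 tested members, and Mock sgRNA replicate 1 the lowest for 42. The log2 ratio of replicate 2 to the mean TPM of replicates 1 and 3 varied with transcript length. Over the 79 members of at least 10 TPM it correlated at -0.51 (Pearson) with the log2 length of the longest coding transcript, a description over genes that share 1 library. Its median was 0.32 for the 40 shorter and 0.17 for the 39 longer members. Taken the same way within its own group, the correlation was 0.16, -0.39 and 0.25 for Mock sgRNA replicates 1, 2 and 3. It was 0.49 and 0.41 for SLC43A2 sgRNA replicates 1 and 3. Replicate 2 thus had the only negative value in each group. The values within a group are not independent, since each library is set against the rest of its group. The labels do not say what a replicate number marks. Long members such as Atp5f1a, Ndufs1 and Sdha, given above, were lowest in SLC43A2 sgRNA replicate 2 within their group. Short ones such as Uqcr11 (1070, 1635 and 1050 TPM) were highest there. Atp5mc1 (4715 bases) and Ndufb2 (4371 bases), with the longest annotated transcripts, lay off this trend. They were also highest in SLC43A2 sgRNA replicate 2, with log2 ratios of 0.41 and 0.23. Gene-level TPM does not say which transcript was expressed. A length used here, also in the correlations and the split by length, may therefore not be that of the RNA measured. Without SLC43A2 sgRNA replicate 2, 36 members rose (23.1% of all genes then rose), with a median log2 change of 0.33. In the main analysis 18 of the 40 shorter members rose (median 0.35) and 26 of the 39 longer ones (median 0.57). Among abundant protein-coding genes 48.4% rose (median 0.42). With trends in length and GC removed from each library, 68 of 81 rose (median 0.63), and 24.6% of all genes tested there.

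**Figure D5:**
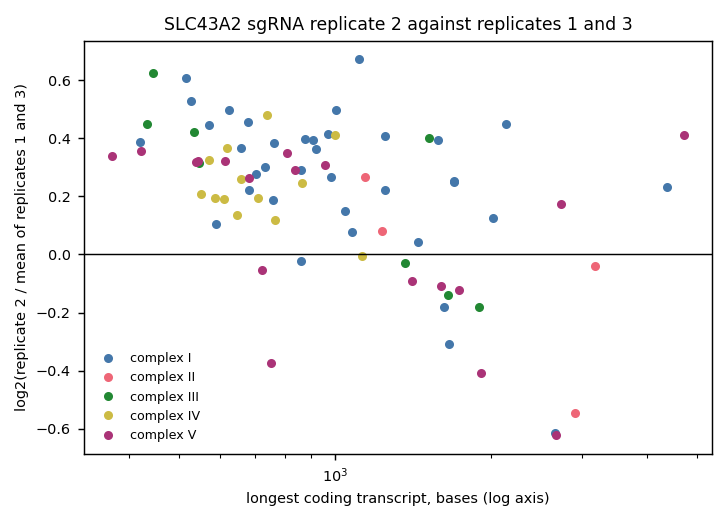
Log2 ratio of SLC43A2 sgRNA replicate 2 to the mean of replicates 1 and 3 (vertical axis) against the length of the longest coding transcript in bases (horizontal log axis) for the 79 subunit genes with a mean of at least 10 TPM, colored by complex. Short members lie mostly above 0 and several long ones below (Pearson r with log2 length = -0.51).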

How the data were processed

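RNA was measured in 6 libraries, grouped by sample titles. The authors deposited gene-level TPM for 57180 genes, with 2 decimals. The submitters' processing notes name Bowtie 0.12.2 and build mm8 without saying what each was for, and the counting tool and annotation are not given in the sources used. Per the labels' protocols, TruSeq RNA libraries were made from total RNA; that text speaks of retinas and may not describe these samples. TPM keeps no depth, so depth and counting error are unknown and the spread between libraries is the only measure of error.

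Lengths, positions and exon overlaps came from GENCODE M21 (GRCm38), which holds all 89 members and 51884 of the table's identifiers, newer than mm8, and the build that underlies the table is therefore uncertain. Differences were fitted with limma 3.58.1 in R 4.3.3 (lmFit, eBayes with a trend, two-sided, no replicate block) on log2(TPM + 1) over genes with a mean of at least 1 TPM, adjusted by Benjamini-Hochberg over all 13759. Fold changes on this scale understate the change of low genes.

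Members and lists were chosen with earlier results of these data known. Named members were all of complex II, the isoform families, members of the catalytic core of complex I, the 4 largest called and 2 smallest changes in complexes I, III, IV and V, and up to 3 called genes per further list. Ndufa12, Ndufa2, Ndufb2, Ndufb4, the X-linked genes, Uqcr10, Uqcr11, Cox5a, Cox7c, other ATP synthase subunits, mt-Nd1 and mt-Nd4l were added after their values were seen. So were assembly factors and regulators beyond 3 per list. The values of 1 member are not reported here, though it is in all counts. Alternatives covered pseudocounts, filters, scalings, weighting of libraries, variance models, a replicate block and omission of single libraries; removal of length and GC trends was added after the data were seen.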

Additional observations from a re-analysis of the deposited data

How the results depend on the processing

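The median log2 change of the members stayed positive under all 18 other settings. It was 0.25 after rescaling to nuclear protein-coding genes, 0.61 after scaling to T cell receptor constant regions and 0.63 with length and GC trends removed, and 0.33 to 0.50 without 1 library. The median of all genes, 0.03 as deposited, was -0.14 with nuclear protein-coding scaling, 0.18 with T cell receptor scaling and 0.135 with quantile normalization. Relative to it the members' median was 0.40 as deposited and 0.38, 0.43 and 0.21 in that order. The share of all calls that were higher was 50.6% as deposited, 37.5% with nuclear protein-coding scaling, 62.5% with T cell receptor scaling and 60.6% among genes of at least 5 TPM.

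Percentages here are shares of all genes that rose under the same setting, 22.8% as deposited. The count of members that rose (44) was 29 with no filter (9.05%) and 27 with nuclear protein-coding scaling (16.3%). It was 68 with length and GC trends removed (24.6%) and 25 to 37 without 1 library (14.3% to 23.1%). With T cell receptor scaling 29.3% of all genes rose, with median-of-ratios scaling 26.9% and with no variance trend 21.7%. By complex, complex I (19) gave 29 with T cell receptor scaling, 30 with length and GC trends removed and 11 to 17 without 1 library. Complex IV (6) gave 2 with no filter, 1 each with median-of-ratios scaling, nuclear protein-coding scaling and no variance trend, 11 with length and GC trends removed and 1 to 5 without 1 library. Complex V (10) gave 6 with no filter, 5 with nuclear protein-coding scaling, 17 with T cell receptor scaling, 6 with no variance trend, 16 with length and GC trends removed and 5 to 9 without 1 library. Quantile normalization gave 2 members that fell in place of 1. With no filter 29304 genes were tested in place of 13759; for the other settings the cause was not tested.

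Signs turned for 11 named members, none of them past the threshold in the main analysis. Under nuclear protein-coding scaling Ndufb1 stood at -0.10, Uqcrh at -0.098, Cox4i1 at -0.081, Cox7b at -0.073, Atp5pd at -0.17, Atp5mf at -0.009 and Cox6a1 at -0.003. Under quantile normalization Ndufb1 stood at -0.14, Cox7b at -0.099, Atp5pd at -0.13, Atp5mf at -0.011 and Ndufs7 at -0.095. Ndufa3 stood at 0.001 with median-of-ratios scaling, 0.12 with T cell receptor scaling and 0.43 with length and GC trends removed (adjusted p = 0.023, limma). Without 1 library Ndufa3 ran from -0.26 to 0.078, Ndufb1 from -0.07 to 0.29, Uqcrh from -0.017 to 0.14, Cox7b from -0.025 to 0.23, Atp5pd from -0.089 to 0.092, Cox6a2 from -0.084 to 0.33 and Cox7a1 from -0.007 to 0.82. With a replicate block 45 members rose, 37 of them among the 44, beside 24.1% of all genes. Over 13759 genes, deviations of same-numbered libraries correlated at 0.00106, 0.0606 and -0.0313. With 3 libraries per group these values cannot decide whether the numbers pair the samples, and the labels do not say.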
